A study of Mus musculus with 6 samples.

Results

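Vimentin and the transcription factors that usually accompany it were followed in HCT116, a long-established line of human colorectal carcinoma cells, as parental cells and as oxaliplatin-resistant cells. The set held 8 genes, taken by symbol from the 31456 rows of the count table, and each symbol had 1 row. They were VIM itself, the factor genes SNAI1, SNAI2, ZEB1, ZEB2, TWIST1 and TWIST2, and CDH2, which encodes N-cadherin. VIM was chosen by its measured counts, for its rise in this same contrast, so its difference is given as a description with no test. The other 7 were named for their known roles, with earlier results of these data in view. Each form of the line was represented by 3 RNA sequencing libraries from total RNA. The labels give no genotype, drug dose, time on drug or way of deriving the resistant cells, and do not say whether these are a pool or a clone, so differences between the forms cannot be assigned to resistance itself. They also do not say whether the libraries of a form came from separate cultures, and the p-values then measure only the spread between these libraries.

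Vimentin is an intermediate filament protein of mesenchymal cells, such as fibroblasts, and is low or absent in most epithelial cells. In epithelial-mesenchymal transition the zinc finger proteins of the SNAI and ZEB families and the basic helix-loop-helix proteins of the TWIST family bind E-box sequences and repress epithelial genes such as CDH1, the gene of E-cadherin, while vimentin and N-cadherin rise. In colorectal cancer this programme is known for its ties to invasion, and HCT116 is known to carry a frameshift in the TGF-beta receptor gene TGFBR2. The question put to the data was whether the rise of vimentin came with a rise of the factors.

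Total counts were 20246878 to 32138423 per library. Levels are given as raw counts, as CPM (counts scaled to library size after TMM normalisation) or, where genes are compared with each other, as the deposited FPKM, which is scaled to gene length. The floor of detection, 3 counts in a library, corresponded to 0.0975 to 0.153 CPM, and it covers counting error only. On the second principal component, with 10.8% of the variance, parental replicate 2 lay at -31.5 and the other parental libraries at 9.99 and 22.5. Of 16605 tested genes 53.8% passed an edgeR adjusted p of 0.05 (quasi-likelihood test), 27.3% as higher and 26.5% as lower in resistant cells. With library sizes alone in place of normalisation factors 65.3% of the called genes were higher, against 50.8%, and the median log2 fold change over all tested genes was 0.11 against 0.02. The deposited FPKM were also used without such factors. On log2(FPKM + 0.1) and log2(FPKM + 1) 61.8% and 60.9% of the called genes were higher, with medians of 0.07 and 0.05. Calls that change on FPKM are to be read beside this shift. Epithelial markers had a summed level over 10 genes of 2765 to 3156 CPM in parental and 2577 to 2722 CPM in resistant libraries. Most of it came from KRT8, KRT18 and KRT19, with means of 1386, 736 and 499 CPM in parental and 1232, 605 and 569 CPM in resistant libraries. Among 6 tested markers 2 were called higher and 3 lower. CDH17, VIL1, LGALS4 and CDX1 had at most 7 counts in any library.

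VIM (ENSG00000026025.16) had 469, 505 and 365 counts in parental replicates 1, 2 and 3, and 22753, 26893 and 23732 counts in resistant replicates 1, 2 and 3. These are 17.6, 16.4 and 18.6 CPM against 914, 920 and 915 CPM. The parental cells thus had VIM mRNA well above the detection floor, and the 3 resistant libraries lay very close together. The fitted difference was 52.4-fold, a log2 fold change of 5.71 ± 0.06 (SE). Of all counts VIM took 0.00157% to 0.00180% in parental and 0.0944% to 0.0947% in resistant libraries. By deposited FPKM it stood at rank 6710 to 7490 of 30616 identified genes in parental and at rank 155 to 157 in resistant libraries. Without parental replicate 2 the log2 fold change was 5.67. Among all tested genes 15 had a larger fitted rise, 4 of them with a mean of at least 5 CPM.

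VIM-AS1 (ENSG00000229124.6), a non-coding gene antisense to VIM, had 1.20, 1.56 and 1.58 CPM in parental and 1.73, 1.88 and 1.73 CPM in resistant libraries. Each resistant library was above each parental one, yet the log2 fold change of 0.30 ± 0.18 (SE) did not pass the threshold (edgeR adjusted p = 0.19). The strand setting of the counting is not given in the sources used here, so reads of VIM and of its antisense partner cannot be told apart where they overlap.

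**Figure D1:**
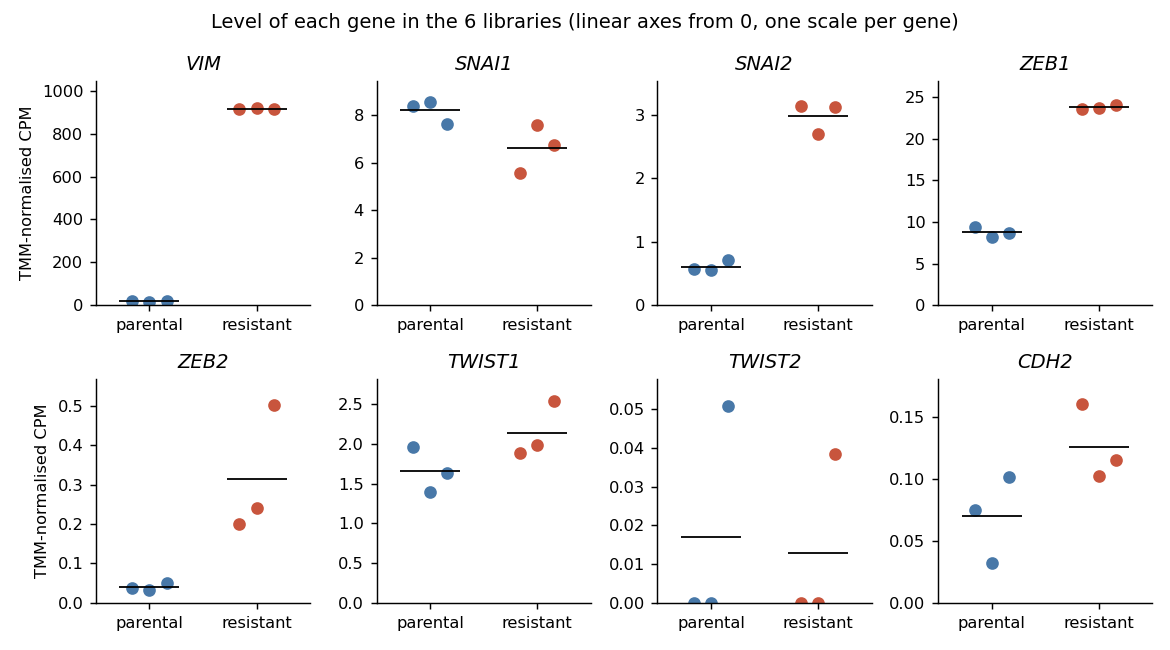
TMM-normalised CPM (vertical axes, linear from 0, a separate scale for each gene) of the 8 genes in the 3 parental and the 3 resistant libraries. Points are libraries in the order of their replicate numbers and horizontal lines are means. VIM, ZEB1, SNAI2 and ZEB2 lie higher in every resistant library and SNAI1 lies lower. CDH2 also lies higher in every resistant library but stays near the detection floor, and TWIST2 stays under it.

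Of the 7 other genes, 4 had enough counts for the test. ZEB1 and SNAI2 passed the threshold as higher in the resistant cells, SNAI1 as lower, and TWIST1 did not pass. Over all 16605 tested genes 53.8% passed, 27.3% as higher and 26.5% as lower, so a call alone does not set these genes apart. In ZEB1 and SNAI2 every resistant library also lay above every parental one, a pattern found in 31.3% of all tested genes. ZEB2, TWIST2 and CDH2 fell under the count filter.

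ZEB1 (ENSG00000148516.21), which encodes a zinc finger repressor of CDH1 and of the miR-200 microRNAs, had 251, 252 and 171 counts in parental and 587, 694 and 625 in resistant libraries. Its level was 9.43, 8.19 and 8.71 CPM against 23.6, 23.7 and 24.1 CPM. The groups were far apart and the resistant libraries nearly equal. ZEB1 rose 2.71-fold, with a log2 fold change of 1.44 ± 0.07 (SE; edgeR adjusted p = 1.1e-08), and 1.39 without parental replicate 2. On the FPKM scale the spread was wider, at 3.01, 2.80 and 2.41 FPKM in parental and 6.63, 7.78 and 5.86 FPKM in resistant libraries. The ratio of FPKM to CPM of ZEB1, with CPM here taken from the total counts, ranged from 0.236 to 0.357 between libraries, whereas that of SNAI1 ranged only from 0.721 to 0.734.

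ZEB2 (ENSG00000169554.20), the paralog of ZEB1 with a similar zinc finger structure, had 1 count in each parental library and 5, 7 and 13 counts in the resistant ones. The resistant libraries were all above the floor of 3 counts and the parental libraries all under it. The ratio of summed counts, scaled to library size, was 8.01 with a 95% exact conditional binomial interval of 2.45 to 41.5, which covers counting error only. With no filter on low counts ZEB2 had an edgeR adjusted p of 0.0010. In that fit the edgeR adjusted p of ZEB1 was 1.8e-64, against 1.1e-08 with the filter. The 2 fits are thus not on a common scale, and the ZEB2 value is not read as a call. Even so its resistant level, 0.201, 0.239 and 0.501 CPM, was far under that of ZEB1, and on the FPKM scale it reached at most 0.19 FPKM against at least 5.86 FPKM for ZEB1.

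SNAI2 (ENSG00000019549.12), which encodes SLUG, had 15, 17 and 14 counts in parental and 78, 79 and 81 in resistant libraries. This amounted to 0.564, 0.553 and 0.713 CPM against 3.13, 2.70 and 3.12 CPM, with a wide gap between the groups. SNAI2 rose 4.93-fold (log2 fold change 2.30 ± 0.19 SE, edgeR adjusted p = 1.4e-06), and its log2 fold change was 2.23 without parental replicate 2. After VIM it had the largest fitted change among the 5 genes of the set that could be fitted.

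SNAI1 (ENSG00000124216.4), which encodes SNAIL, moved the other way. It had 223, 263 and 150 counts in parental and 138, 222 and 175 in resistant libraries, or 8.38, 8.55 and 7.64 CPM against 5.55, 7.59 and 6.75 CPM. In CPM the groups did not overlap, but the gap between the lowest parental and the highest resistant library was small. On the deposited FPKM they did overlap, at 5.94, 6.01 and 5.44 FPKM against 4.15, 5.63 and 5.03 FPKM, and the SNAI1 call was lost (limma adjusted p = 0.15 and 0.18 at pseudocounts of 1 and 0.1). SNAI1 had a log2 fold change of -0.31 ± 0.12 (SE), and its edgeR adjusted p of 0.048 lay at the threshold. The call was lost without parental replicate 1 or 2 and without resistant replicate 1 or 3, at adjusted p-values of 0.10, 0.088, 0.19 and 0.095, and also with DESeq2 (adjusted p = 0.089) and with library sizes alone (edgeR adjusted p = 0.15) or at least 1 CPM in 3 libraries (edgeR adjusted p = 0.054). Over all alternatives the SNAI1 adjusted p lay between 0.017 and 0.19, while its log2 fold change stayed negative in each of them.

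TWIST1 (ENSG00000122691.13), a basic helix-loop-helix factor gene, had 52, 43 and 32 counts in parental and 47, 58 and 66 in resistant libraries. The levels were 1.95, 1.40 and 1.63 CPM against 1.89, 1.98 and 2.54 CPM. Resistant replicate 1 lay under parental replicate 1, so the groups overlapped. Its fitted difference of 0.37 ± 0.20 (SE) on the log2 scale did not pass (edgeR adjusted p = 0.13). On the deposited FPKM, with 1.47, 1.04 and 1.23 against 1.91, 1.56 and 2.19 FPKM, the groups did not overlap and the call turned, with limma adjusted p-values of 0.033 at a pseudocount of 1 and 0.044 at 0.1. The ratio of FPKM to CPM from total counts was 0.977 in resistant replicate 1 and 0.834 in resistant replicate 3. In the other libraries it was 0.765 to 0.778, so the 2 scales differ most in those resistant libraries. The adjusted p of TWIST1 ranged from 0.033 to 0.43 over its alternatives. TWIST2 (ENSG00000233608.4), the paralog of TWIST1, had 1 count in parental replicate 3, 1 in resistant replicate 3 and none elsewhere. Both forms were thus under the floor and no fold is given.

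CDH2 (ENSG00000170558.9), the N-cadherin gene whose rise accompanies that of vimentin in the classical transition, had 2, 1 and 2 counts in parental and 4, 3 and 3 in resistant libraries. All 6 values lay near the floor of 3 counts. In CPM each resistant library was above each parental one, with 0.103 against 0.102 CPM at the closest. The ratio of summed counts was 1.92, with a 95% exact conditional binomial interval of 0.599 to 7.17, so a difference was not detectable at this depth. With no filter its edgeR adjusted p was 0.52. The resistant cells therefore had VIM at 914 to 920 CPM beside CDH2 at 0.103 to 0.161 CPM.

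**Figure D2:**
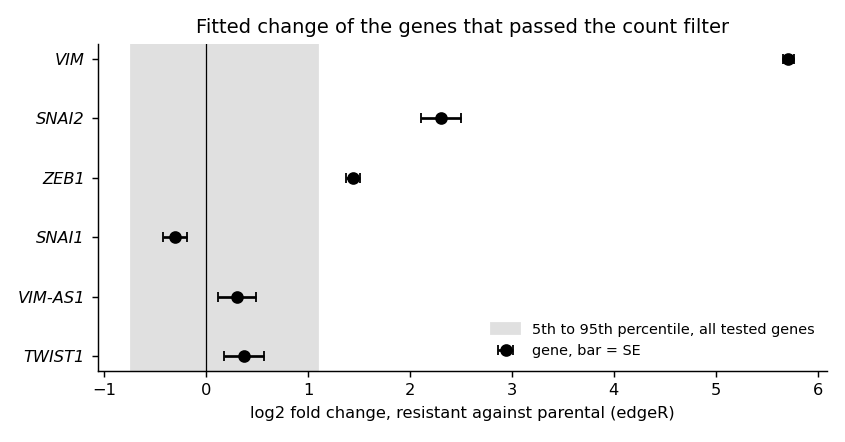
Fitted log2 fold change, resistant against parental (horizontal axis), of the 5 genes of the set that passed the count filter and of VIM-AS1. Bars are standard errors from 3 libraries per group, and the grey band spans the 5th to 95th percentile of all 16605 tested genes, -0.74 to 1.10. VIM, SNAI2 and ZEB1 lie above the band, and SNAI1, VIM-AS1 and TWIST1 lie within it.

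Compared per length, SNAI1 was the most abundant of the 6 factor genes in the parental cells and ZEB1 in the resistant cells. In the parental libraries the order by FPKM was SNAI1 at 5.80 ± 0.311, ZEB1 at 2.74 ± 0.304, TWIST1 at 1.25 ± 0.215 and SNAI2 at 0.350 ± 0.0656 (SD, n = 3). No neighbours in that order overlapped. In the resistant libraries it was ZEB1 at 6.76 ± 0.966, SNAI1 at 4.94 ± 0.744, TWIST1 at 1.89 ± 0.316 and SNAI2 at 1.63 ± 0.127 FPKM (SD, n = 3). There the ranges of TWIST1 and SNAI2 overlapped, and their order across libraries is not resolved. Within each resistant library TWIST1 was the higher, at 1.91 against 1.73, 1.56 against 1.49 and 2.19 against 1.68 FPKM. ZEB2 and TWIST2 averaged at most 0.12 FPKM in either form.

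The ratio of ZEB1 to SNAI1 FPKM within a library was 0.507, 0.466 and 0.443 in parental and 1.60, 1.38 and 1.17 in resistant libraries. On this scale the exchange of rank was therefore present in every library. By raw counts, not scaled to length, the ratio was 1.13, 0.958 and 1.14 in parental and 4.25, 3.13 and 3.57 in resistant libraries. ZEB1 thus had more counts than SNAI1 already in parental replicates 1 and 3. The 6 factor genes together had 10.8, 10.2 and 9.56 FPKM in parental and 14.5, 16.5 and 15.0 FPKM in resistant libraries, a mean 1.51 times as high. SNAI1 made up 57.0% ± 2.21 of that sum in parental and 32.0% ± 3.01 in the resistant cells, ZEB1 26.9% ± 1.43 and 43.9% ± 4.30, and SNAI2 3.44% ± 0.586 and 10.7% ± 1.51 (SD, n = 3). The share of TWIST1 was 12.2% ± 1.75 and 12.4% ± 2.66. VIM had 1.08 to 1.44 times the summed FPKM of the factors in parental libraries and 37.2 to 42.3 times that sum in the resistant ones. These are levels of mRNA, and protein was not measured.

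**Figure D3:**
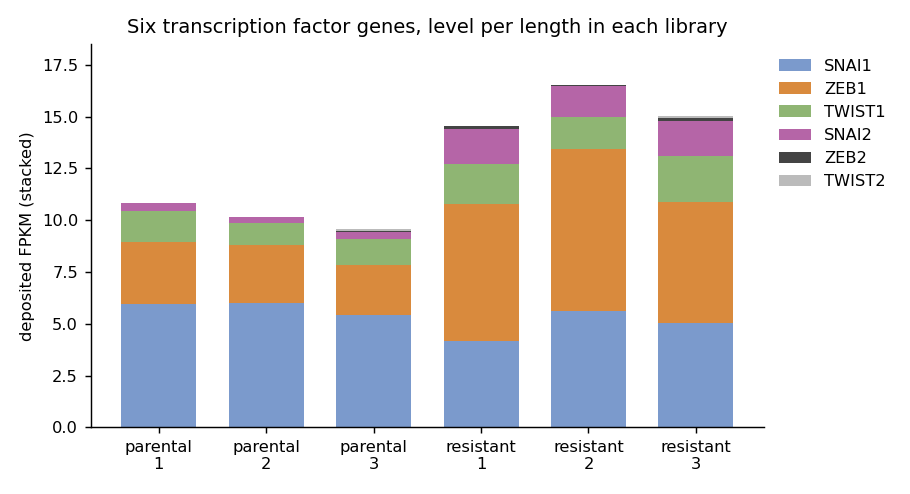
Deposited FPKM (vertical axis, from 0) of the 6 transcription factor genes, stacked for each of the 6 libraries. The blue SNAI1 segment is the largest in the 3 parental libraries and the orange ZEB1 segment the largest in the 3 resistant libraries, where the stacks reach 14.5 to 16.5 FPKM.

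Around the set, 8 lists of related genes were counted in the same fit. Other transcription factor genes of the transition were more often higher than lower. Of 9 tested, 5 rose, 2 fell and 2 did not pass, with a median log2 fold change of 0.19 against 0.02 over all tested genes. The share called, 77.8%, stands beside 53.8% of all tested genes. SOX4, a SOX family factor gene induced by TGF-beta, had 31.2, 27.8 and 30.5 CPM in parental and 105, 104 and 107 CPM in resistant libraries, and rose 3.52-fold (edgeR adjusted p = 2.0e-10). The forkhead gene FOXC1 rose 1.38-fold (adjusted p = 0.0046), and ETS1 and TCF3, the latter encoding E-box binding proteins, fell 1.43-fold and 1.19-fold. TCF3 did not pass on the deposited FPKM, with limma adjusted p-values of 0.071 and 0.094. SNAI3, the third SNAI gene, was named after its values were seen. It had 1.77 ± 0.132 CPM in parental and 2.68 ± 0.314 CPM in resistant libraries (SD, n = 3; edgeR adjusted p = 0.0088), a call lost with DESeq2 (adjusted p = 0.054). PRRX1 and TCF4 had at most 2 counts in any library.

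Epithelial genes that these factors are known to repress were mostly lower. Of 26 tested, 16 fell, 7 rose and 3 did not pass, with a median log2 fold change of -0.34, and -0.28 without parental replicate 2. Of the list 88.5% were called, against 53.8% of all tested genes, and 1 gene that rose, CLDN1, met the count filter in resistant libraries only. On log2(FPKM + 0.1) 13 fell and 4 rose. ESRP1, a splicing regulator gene of epithelial cells, had 165, 158 and 163 CPM in parental and 86.1, 82.3 and 85.9 CPM in resistant libraries, and fell 1.91-fold (edgeR adjusted p = 8.8e-09). The plakophilin gene PKP3 fell 1.95-fold and ST14, which encodes the membrane protease matriptase, fell 2.03-fold. In the opposite direction MAL2, a membrane trafficking gene, rose 3.39-fold from 44.2 ± 3.26 to 149 ± 14.1 CPM (SD, n = 3).

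CDH1, named after its values were seen, is the best known target of the SNAI and ZEB proteins and was not lower. It had 41.5, 43.4 and 43.7 CPM in parental and 50.3, 50.7 and 49.2 CPM in resistant libraries, every resistant library above every parental one. The log2 fold change of CDH1 was 0.23 ± 0.05 (SE; edgeR adjusted p = 0.0025). On the deposited FPKM its log2 fold change was 0.13 and 0.14 at pseudocounts of 1 and 0.1, with limma adjusted p-values of 0.47 and 0.50. Among the 7 epithelial genes that rose were also the genes of 2 factors that maintain the epithelial state, GRHL2 (1.55-fold, edgeR adjusted p = 9.1e-04) and OVOL2 (1.74-fold, adjusted p = 0.0077), while OVOL1 fell 1.68-fold. These were chosen after their values were seen. GRHL2 did not pass on the deposited FPKM (limma adjusted p = 0.36 and 0.40), and OVOL2 did not pass in DESeq2 (adjusted p = 0.076).

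Mesenchymal structural and surface genes went both ways. Of 13 tested, 5 rose, 3 fell and 5 did not pass, a share called of 61.5% against 53.8% of all tested genes. The median log2 fold change was 0.14, and it was 0.22 without parental replicate 2, 0.22 without resistant replicate 1 and 0.09 without parental replicate 3. FN1, the fibronectin gene, had 21.6, 23.1 and 22.4 CPM in parental and 61.7, 67.8 and 61.2 CPM in resistant libraries, a 2.85-fold rise (edgeR adjusted p = 2.5e-09). SPARC, a matrix protein gene, had 7, 8 and 5 counts in parental and 68, 71 and 68 in resistant libraries. It met the count filter in resistant libraries only and so had to differ, and without it 4 of 12 were higher. The hyaluronan receptor gene CD44 fell 1.77-fold from 736 ± 19.3 to 416 ± 7.14 CPM (SD, n = 3), and the receptor kinase gene AXL fell 1.33-fold. MMP2, MMP9 and TNC were under the count filter, and no row was found under the symbols CDH11 and POSTN.

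Since fibroblasts are rich in vimentin, fibroblast markers were read beside these genes. Their summed level was 22.6 to 26.1 CPM in parental and 39.3 to 45.0 CPM in resistant libraries over 8 genes. COL1A1 made up nearly all of it, with 22.4 to 25.8 CPM and 38.4 to 43.9 CPM. COL3A1, with 1, 1 and 0 counts in parental and 5, 11 and 9 in resistant libraries, was under the count filter. DCN, LUM, COL1A2, PDGFRA and THY1 had at most 2 counts in any library. COL1A1 passed the test as higher. PDGFRB, with at most 6 counts in a parental and 17 in a resistant library, met the count filter in resistant libraries only, and its test is not given. The part of such cells in the differences above was not tested. Endothelial and leukocyte markers summed to at most 1.16 and 18.0 CPM, the latter nearly all from CD68. In bulk RNA a change in the share of cells with vimentin and a change in the RNA per cell cannot be told apart.

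In the TGF-beta pathway, which is upstream of these factors, 10 of 18 tested genes rose, none fell and 8 did not pass, with a median log2 fold change of 0.37. The share called was 55.6%, near the 53.8% of all tested genes, and the share higher is to be read against 27.3%. With DESeq2 8 rose, on FPKM 7 rose at either pseudocount, and with library sizes alone 14 rose. Without parental replicate 1, 9 rose and 1 fell. TGFB2 and PMEPA1, both among the 10, met the count filter in resistant libraries only, and 8 of 16 were higher without them. The median of 0.37 includes both, and they raise it. Of the receptor genes, TGFBR1 and TGFBR2 did not pass, at log2 fold changes of -0.03 and 0.05, although TGFBR2 passed with library sizes alone (0.14, edgeR adjusted p = 0.047). The ligand gene TGFB2, named after its values were seen, had 0.714, 0.293 and 0.815 CPM in parental and 2.13, 2.50 and 2.20 CPM in resistant libraries. No row was found under the symbol TGFB1. SMAD3, a signal transducer gene, rose 1.76-fold from 139 ± 2.90 to 246 ± 9.05 CPM (SD, n = 3). The latent TGF-beta binding protein gene LTBP1 rose 1.83-fold, and TGIF1, a corepressor gene of the pathway, rose 1.31-fold, a call lost on FPKM (limma adjusted p = 0.083 and 0.11). PMEPA1, a target and feedback inhibitor of the pathway, had 8, 3 and 8 counts in parental and 121, 141 and 124 in resistant libraries.

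Other intermediate filament genes and their cross-linkers did not follow VIM. Of 11 tested, 6 fell, 1 rose and 4 did not pass, with a median log2 fold change of -0.30, and -0.15 without parental replicate 2. This was 63.6% called, beside 53.8% of all tested genes. The 1 that rose was NES, which encodes nestin, from 33.1, 34.8 and 30.5 CPM to 67.2, 74.5 and 65.9 CPM (2.10-fold, edgeR adjusted p = 9.3e-08). The lamin genes LMNA, LMNB1 and LMNB2, which encode filaments of the nuclear envelope, fell 1.50-fold, 1.50-fold and 1.37-fold. On the deposited FPKM 3 of the list fell at either pseudocount, and the median was -0.07 at a pseudocount of 1 and -0.12 at 0.1. GFAP, INA, NEFH and NEFL were under the count filter.

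Of the factors reported at the VIM promoter, 4 of 13 tested rose, 4 fell and 5 did not pass, with 61.5% called beside 53.8% of all tested genes. The median log2 fold change was -0.03, and it was 0.06 with library sizes alone, 0.02 on both FPKM settings and -0.02 without resistant replicate 1. JUN, a subunit of the AP-1 factor, had 29.1, 30.3 and 31.3 CPM in parental and 65.2, 64.1 and 66.0 CPM in resistant libraries, and rose 2.15-fold (edgeR adjusted p = 8.4e-09). FOSL2, which encodes a partner of JUN in AP-1, rose 1.57-fold and HIF1A, the hypoxia factor gene, 1.35-fold. TCF7L2, which encodes the main partner of beta-catenin in the colon, fell 1.96-fold from 187 ± 13.2 to 95.4 ± 3.38 CPM (SD, n = 3). LEF1, another such partner gene, had at most 1 count in any library.

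Genes that act with SNAI and ZEB proteins or control their turnover were mixed, with 3 of 16 tested higher, 4 lower and 9 not past the threshold. Their log2 fold changes had a median of -0.06. The share called was 43.8%, under the 53.8% of all tested genes. With library sizes alone 5 were higher and 1 lower, with a median of 0.03. On FPKM 3 were higher and 0 lower at either pseudocount, with medians of 0.0021 and 0.0025. LOXL2, a lysyl oxidase family gene whose product stabilises SNAIL, stood out at 33.3, 38.0 and 31.9 CPM in parental and 95.5, 97.0 and 88.1 CPM in resistant libraries (2.71-fold, edgeR adjusted p = 9.6e-09). AJUBA, a SNAIL corepressor gene, rose 1.23-fold, and the corepressor genes CTBP2 and KDM1A fell 1.16-fold and 1.13-fold. The CTBP2 and KDM1A calls were lost on FPKM, with limma adjusted p-values of 0.060 and 0.081 and of 0.16 and 0.19, and that of KDM1A also with library sizes alone (edgeR adjusted p = 0.086). Of the microRNA genes that restrain ZEB and SNAI mRNAs, the host genes of miR-34a and of miR-200c were measured here. MIR34AHG rose from 5.52, 5.23 and 5.91 CPM to 9.52, 10.2 and 9.64 CPM (1.77-fold, edgeR adjusted p = 1.8e-05), and MIR200CHG was under the filter at 0.196 ± 0.0832 and 0.287 ± 0.0486 CPM (SD, n = 3).

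**Figure D4:**
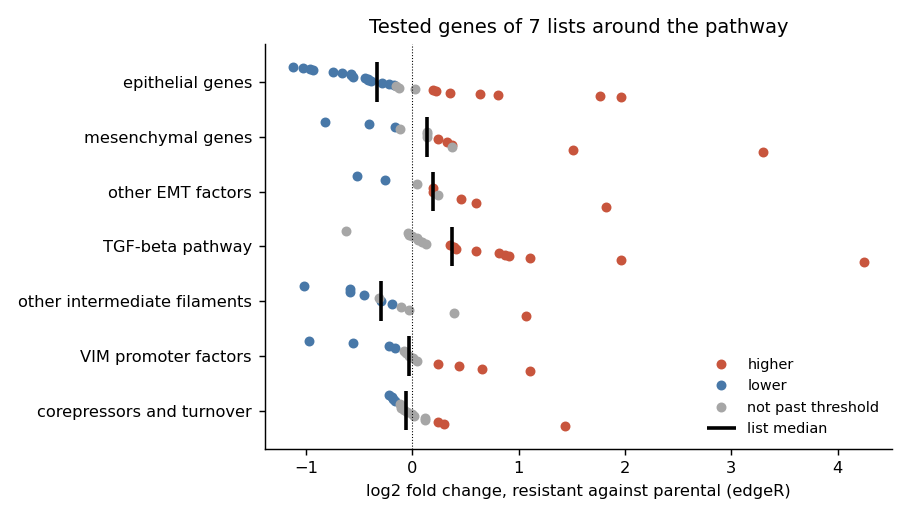
Log2 fold change, resistant against parental (horizontal axis), of every tested gene in 7 lists around the pathway. Each point is a gene, red if higher, blue if lower and grey if not past an edgeR adjusted p of 0.05, and black lines are list medians. The epithelial list has its median at -0.34 and the TGF-beta list at 0.37. The latter includes TGFB2 and PMEPA1, which met the count filter in resistant libraries only.

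Of 11625 identified genes with a mean of at least 5 CPM, the 5 most like VIM over the 6 libraries were TTN, DHRS2, EHF, ALDH3A1 and LUCAT1. Likeness was the Euclidean distance between log2(CPM + 1) values taken relative to the parental mean, and it ran from 0.731 for TTN to 3.17 for LUCAT1. TTN encodes the muscle protein titin, DHRS2 and ALDH3A1 encode oxidoreductases, EHF encodes an epithelial ETS factor, and LUCAT1 is a long non-coding RNA. None of the 5 was in the set or in the lists above. LUCAT1 had 2.82, 3.06 and 3.36 CPM in parental and 54.5, 57.8 and 55.2 CPM in resistant libraries.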

How the data were processed

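A SMARTER mRNA-Seq kit was used on total RNA, per the labels' protocols. The authors deposited whole read counts per gene, without normalisation, and a second table taken here as FPKM, a unit inferred from the values. No aligner, counter or strand setting is named (not given in the sources used here). Both the labels and the submitters' processing notes name mouse builds, but 30616 of 31456 rows carry human Ensembl identifiers, so the mouse reference was not used. The other 840 rows are unidentified gene models with 0.857% to 0.955% of the counts.

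Counts were tested with edgeR 4.0.16 in R 4.3.3 (TMM, filterByExpr with a minimum count of 10, robust quasi-likelihood fit, two-sided, Benjamini-Hochberg over all tested genes, threshold 0.05), on all 6 libraries, 3 per group. The SE is the log2 fold change divided by the square root of F. The edgeR step was tested on simulated counts in which a small share of genes, all well counted, was changed. That check does not cover genes with low counts or a contrast in which most tested genes pass. Alternatives were RLE factors, library sizes alone, 2 other filters, DESeq2 1.42.0, limma 3.58.1 on log2(FPKM + 1) and log2(FPKM + 0.1), a replicate block and leaving out each library. Where a symbol had several rows, that of the highest total count was used.

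The members and lists were chosen with earlier results of these data known. Named are the 8 members, VIM-AS1, up to 4 genes per list with the smallest adjusted p, the 5 genes nearest to VIM, and genes marked as named after their values were seen. The marker genes, list genes under the filter and list genes named as not past the threshold also fall outside that rule.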

Additional observations from a re-analysis of the deposited data

How the results depend on the processing

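The count of genes past the threshold, 8933, was within 1.5 times of that value under every alternative, from 6372 on log2(FPKM + 0.1) to 9973 with the replicate block. Of the 7 members other than VIM 3 passed, against 2 with DESeq2, at least 1 CPM in 3 libraries or library sizes alone, 2 or 3 with a library left out, and 4 with no filter. SNAI1 was the call lost. With no filter the added member was ZEB2, which had 1 count in each parental library, and p-values of that fit are not comparable with the main ones. On FPKM 3 also passed at either pseudocount, with TWIST1 in place of SNAI1. The VIM log2 fold change of 5.71 was 5.54 on log2(FPKM + 1) and 5.81 with library sizes alone. It was 5.67 to 5.74 with a library left out. ZEB1 ranged from 1.05 to 1.53 and SNAI2 from 0.96 to 2.40, both past the threshold throughout. With the replicate block the VIM log2 fold change was 5.71, 3 members passed, and no member's call changed. The replicate numbers do not pair the libraries by the labels, and deviations of same-numbered libraries correlated at 0.074, 0.14 and 0.010, with resistant replicate 1 closest to parental replicate 3. In the corepressor list 5 genes were higher with the block against 3, and 7 were lower without parental replicate 2 against 4. Over the genes recomputed under these alternatives 876 values kept their side of the threshold, 58 lost a call, 3 gained one and none reversed a called direction. At 3 counts per library as the floor, depth limits CDH2, TWIST2 and ZEB2. The causes of these changes were not tested.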
